A study of Rattus norvegicus with 6 samples.

Results

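The 8 genes Actr2, Actr3, Arpc1a, Arpc1b, Arpc2, Arpc3, Arpc4 and Arpc5 encode subunits of the Arp2/3 complex, and Wasf2 encodes WAVE2, a protein that switches the complex on. These 9 genes were taken by symbol from 24360 gene rows, and their 32 transcript rows, 15 annotated and 17 new models, from 44501 transcript rows by source gene. RNA was sequenced from 3 samples of H9c2 cells given ginsenoside Rb2, a saponin of ginseng (Rb2), and 3 control samples labelled NC (Ctrl). All 6 samples are labelled wild type. One protocol text serves both groups: Rb2 for 48 h, then oxygen and glucose deprivation for 4 to 6 h and their return for 12 h. It does not say whether Ctrl cells went through the deprivation, nor that each replicate was its own culture, so any p-value here reflects sample-to-sample spread that may be only technical. H9c2 is a myoblast line from embryonic rat heart and is labelled embryonic cardiomyocyte. Of the cardiac markers, Tnnt2 averaged 49.1 CPM (counts scaled to the same library total) and Gata4 6.71 CPM, Actc1 had no count, and Tnni3, Myh7 and Myl7 averaged 0.040, 0.031 and 0.030 CPM. The myoblast markers Myod1, Des and Myog averaged 14.1, 12.6 and 9.97 CPM. Of the 10 cardiac markers with a row 4 reached 1 CPM, as did 3 of the 8 skeletal myoblast markers; the other 5 (Myh3, Ckm, Tnnt1, Tnnt3 and Chrna1) were below it.

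The Arp2/3 complex binds the side of an actin filament and starts a new filament there as a branch. Actr2 and Actr3 resemble actin and form the base of the new filament, Arpc2 and Arpc4 hold the old filament, and Arpc1, Arpc3 and Arpc5 join these parts and take up activators. The complex is inactive until a nucleation-promoting factor such as WAVE2 or N-WASP brings it an actin monomer. WAVE2 acts downstream of the GTPase Rac at the edge of spreading and crawling cells. Arpc1a and Arpc1b, Arpc5 and Arpc5l, and Actr3 and Actr3b are alternative forms of the same subunit.

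RefSeq promoter sequences (assembly GRCr8, 250 bases before to 50 bases after the start) matched 8 of the 9 members. The promoters shown are those of the member that passed the test, Arpc5, of Actr2 and Actr3, whose Rb2 values also lay above all Ctrl values, and of Arpc4, whose Rb2 values lay below them. Capitals mark the ETS-type core CGGAAG and the GC box GGGCGG, each on either strand. The 2 motifs do not overlap each other in these 4 windows, while adjacent GC boxes may.
Arpc5: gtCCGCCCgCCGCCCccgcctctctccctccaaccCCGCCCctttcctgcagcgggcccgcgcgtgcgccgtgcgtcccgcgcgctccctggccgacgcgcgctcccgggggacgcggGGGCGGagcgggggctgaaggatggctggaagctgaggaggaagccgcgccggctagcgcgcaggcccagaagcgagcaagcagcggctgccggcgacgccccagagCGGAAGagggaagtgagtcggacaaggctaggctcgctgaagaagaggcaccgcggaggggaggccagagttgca
Actr2: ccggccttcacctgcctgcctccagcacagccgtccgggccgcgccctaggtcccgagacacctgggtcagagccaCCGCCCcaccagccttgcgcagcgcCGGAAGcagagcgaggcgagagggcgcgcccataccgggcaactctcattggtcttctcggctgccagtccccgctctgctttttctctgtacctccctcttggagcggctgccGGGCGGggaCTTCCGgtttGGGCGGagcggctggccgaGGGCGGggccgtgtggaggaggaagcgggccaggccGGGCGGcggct
Actr3: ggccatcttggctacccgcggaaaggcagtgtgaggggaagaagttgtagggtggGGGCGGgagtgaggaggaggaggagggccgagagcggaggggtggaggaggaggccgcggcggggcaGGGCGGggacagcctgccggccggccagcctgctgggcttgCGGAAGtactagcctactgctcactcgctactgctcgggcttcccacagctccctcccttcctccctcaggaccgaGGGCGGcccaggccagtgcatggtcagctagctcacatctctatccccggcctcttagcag
Arpc4: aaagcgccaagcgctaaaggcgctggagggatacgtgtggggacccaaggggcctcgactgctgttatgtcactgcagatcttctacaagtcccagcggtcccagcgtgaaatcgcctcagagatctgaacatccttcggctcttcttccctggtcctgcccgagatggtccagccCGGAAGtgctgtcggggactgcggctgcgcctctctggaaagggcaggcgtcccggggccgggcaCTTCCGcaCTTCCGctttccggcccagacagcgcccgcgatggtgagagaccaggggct
They lie at chr13:67454129-67454428 (plus strand), chr14:98535043-98535342 (minus strand), chr13:39396460-39396759 (minus strand) and chr4:148077649-148077948 (plus strand), in the order printed. The Arpc5 window held 1 ETS-type core and 4 GC boxes, and the Actr2 window 2 and 5. The Actr3 window held 1 ETS-type core and 3 GC boxes, while the Arpc4 window held 3 ETS-type cores and no GC box. At least 1 ETS-type core was present in 8 of 8 member promoters, against 16.6% of all 33469 promoters and 24.3% of those with at least 50% G and C. A GC box was present in 7 of the 8, against 33.1% of all promoters and 53.6% of those with at least 50% G and C, as all 8 have. CCAAT was present in 3 of the 8 (37.5% of all), and neither TATAAA (14.2% of all, 5.73% of those with at least 50% G and C) nor the CArG box (1.64% of all), the binding motif of serum response factor, was found in any of the 8. Member promoters held 51.7% to 74.7% G and C, where the median of all promoters was 51.7%. Beyond the 50% limit the comparison promoters were not matched to the members in G and C, nor limited to expressed genes. The shares are thus not like for like, and whether members differ from matched promoters was not tested. A motif match describes these letters and is not a binding site.

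Total counts were 5193077 to 5570308 in Rb2 and 5787587 to 8793390 in Ctrl, and 3 counts, the limit that a count of 0 allows, equalled 0.341 to 0.578 CPM (counting error only). Ctrl replicate 1 was the deepest library and stood apart: on the first principal component of log2 CPM, which held 42.3% of the variance, it lay at -47.0, against 18.1 to 23.8 for Rb2 and -18.1 and 0.56 for Ctrl replicates 2 and 3. Summed markers overlapped between groups: cardiac 55.0 to 64.3 CPM in Rb2 and 56.8 to 76.1 CPM in Ctrl, skeletal myoblast 39.0 to 46.0 CPM in Rb2 and 32.8 to 42.5 CPM in Ctrl, leukocyte 26.7 to 31.3 CPM in Rb2 and 20.5 to 31.8 CPM in Ctrl with Ptprc at 0, epithelial 33.9 to 39.9 CPM in Rb2 and 32.2 to 41.9 CPM in Ctrl with Epcam and Cdh1 at 0, and endothelial at most 0.178 CPM in Rb2 and 0.121 CPM in Ctrl. The epithelial sum was Krt8 alone, since Krt18 was also at 0. The leukocyte sum was mainly Cd14, which averaged 26.8 CPM, against 0.997 CPM for Cd3e and 0.270 CPM for Cd68. All 9 members passed the filter on low counts. CPM values of genes and transcripts are scaled by TMM factors.

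Of the 9 members, only Arpc5 passed the test (edgeR quasi-likelihood, Benjamini-Hochberg adjusted p under 0.05 over 11551 genes). It rose in Rb2, and no member fell. In the same fit 2.7% of all genes were called, 1.9% higher and 0.805% lower beside this 1 member of 9 (11.1%). Rb2 values lay above all Ctrl values in 4 members (Actr2, Actr3, Arpc2 and Arpc5) and below them in 1 (Arpc4); over all genes tested these shares were 15% and 12.2%. An unadjusted p under 0.05 was seen in 5 of the 9 members and in 20% of all genes tested. The median log2 fold change was 0.15 over the members and -0.02 over all genes tested. It was 0.04 over the known genes tested, to which all members belong. With gene length offset within each library, the median was 0.03 over the members and -0.04 over all genes tested. In bulk RNA, fewer cells of a type and less RNA per cell cannot be told apart.

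Arpc5 (ENSRNOG00000028062), the subunit that tethers the Actr2 part of the complex to the rest, had 167, 172 and 178 CPM in Rb2 replicates 1 to 3, against 90.2, 110 and 122 CPM in Ctrl replicates 1 to 3. The groups were well apart, with the lowest Rb2 sample above the highest Ctrl sample. It rose 1.60-fold, with means of 172 ± 5.67 CPM in Rb2 and 108 ± 16.2 CPM in Ctrl (SD, n = 3 each), a log2 fold change of 0.68 (SE 0.12; edgeR adjusted p = 0.0302). Without Ctrl replicate 1 the log2 fold change was 0.59 (edgeR adjusted p = 0.000925). Among fits with 1 library left out, the call was lost without Rb2 replicate 1, 2 or 3 (edgeR adjusted p = 0.0899, 0.188 and 0.159) and without Ctrl replicate 2 (0.146), with log2 fold changes of 0.66 to 0.71. In those fits 0.32%, 0.0247%, 0.0908% and 0.125% of all genes were called, against 7.53% without Ctrl replicate 1 and 5.36% without Ctrl replicate 3. The call held in 13 of 19 alternatives, over which the adjusted p of Arpc5 ran from 0.000925 to 0.188 and the log2 fold change from 0.59 to 0.80.

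**Figure D1:**
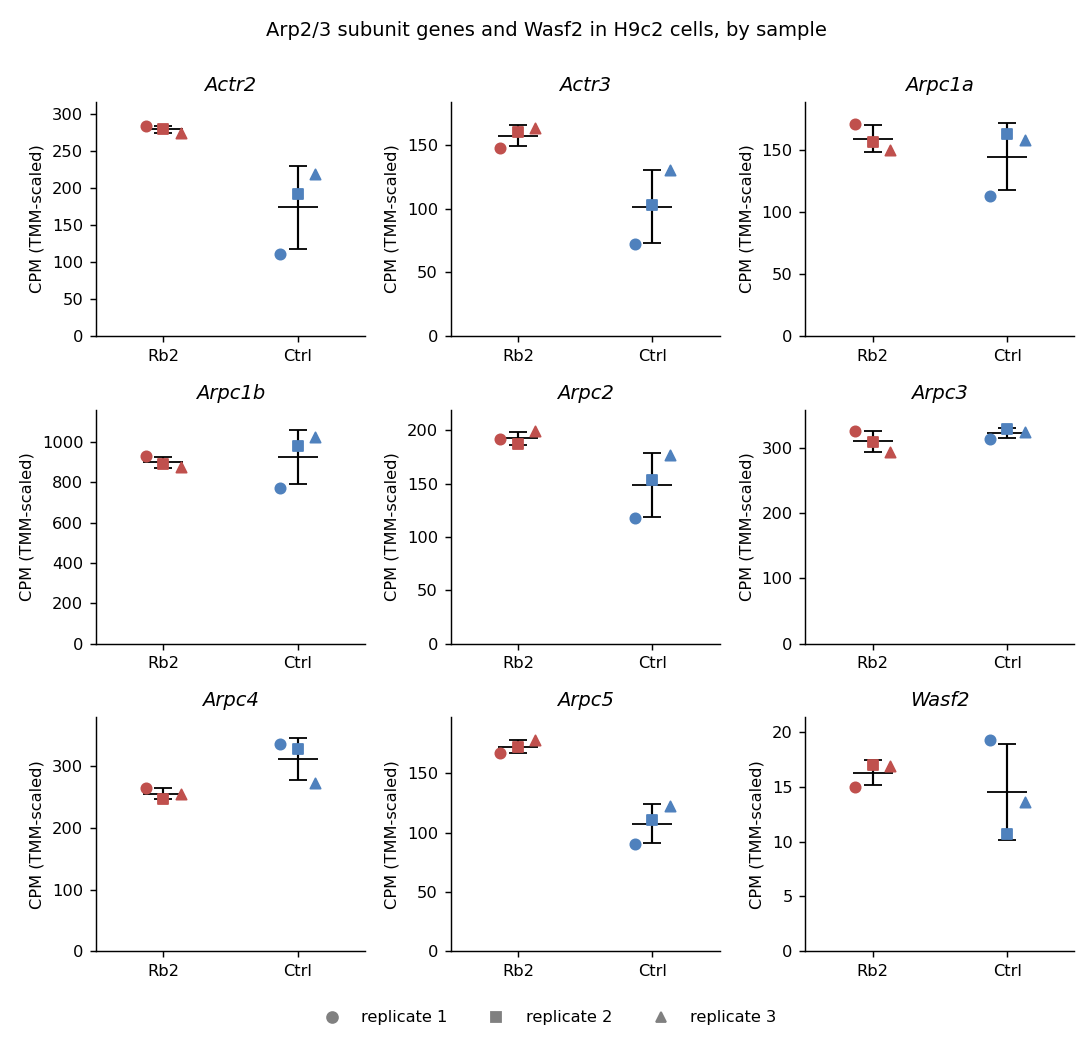
Each panel plots 1 member gene in TMM-scaled CPM on a linear axis from 0, with Rb2 left of Ctrl, symbols for replicates 1 to 3 and a bar for the mean with its SD (n = 3). Arpc5 is at 167 to 178 CPM in Rb2 and 90.2 to 122 CPM in Ctrl, and Ctrl replicate 1 is the lowest of the 6 samples for Actr2, Actr3, Arpc1a, Arpc1b, Arpc2 and Arpc5.

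Among the actin-like subunits, Actr2 (ENSRNOG00000004959) had 285, 279 and 275 CPM in Rb2 replicates 1 to 3, against 112, 192 and 219 CPM in Ctrl replicates 1 to 3. The Rb2 samples were nearly level, and the Ctrl samples spread widely, with replicate 1 far below the others. Its log2 fold change of 0.69 (SE 0.22) did not pass (edgeR adjusted p = 0.136). Without Ctrl replicate 1 the log2 fold change was 0.46 and passed (edgeR adjusted p = 0.00273), as it did with DESeq2 on all 6 samples (0.68, DESeq2 adjusted p = 0.0317).

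Actr3 (ENSRNOG00000003206) had 148, 160 and 164 CPM in Rb2 replicates 1 to 3, against 72.1, 103 and 130 CPM in Ctrl replicates 1 to 3. As for Actr2, the groups did not overlap and Ctrl replicate 1 was lowest. The log2 fold change of 0.63 (SE 0.19) did not pass (edgeR adjusted p = 0.105). It passed without Ctrl replicate 1 (0.45, edgeR adjusted p = 0.0210), without Ctrl replicate 3 (0.87, edgeR adjusted p = 0.0213) and with DESeq2 (0.63, DESeq2 adjusted p = 0.0368). DESeq2 called 3 members (Arpc5, Actr2 and Actr3), all higher in Rb2. It called 5.25% of the 7967 genes to which it gave an adjusted p, 4.05% higher and 1.19% lower. The edgeR share of 2.7% was over 11551 genes, so the 2 shares have different bases. Over 19 alternatives the adjusted p ran from 0.00273 to 0.347 for Actr2 and from 0.0210 to 0.315 for Actr3. Actr3b, the alternative form of Actr3, had 0, 2 and 0 counts in Rb2 and 1, 0 and 0 counts in Ctrl, so Actr3 took nearly all counts of the pair.

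Of the pair that contacts the old filament, Arpc2 (ENSRNOG00000014289) had 191, 187 and 199 CPM in Rb2 replicates 1 to 3, against 117, 153 and 177 CPM in Ctrl replicates 1 to 3. The groups did not overlap, and Ctrl replicate 3 came closest to Rb2. The log2 fold change of 0.37 (SE 0.14) did not pass (edgeR adjusted p = 0.177). It was 0.24 without Ctrl replicate 1 (edgeR adjusted p = 0.0850), and it passed without Ctrl replicate 3 (0.53, edgeR adjusted p = 0.0448).

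Arpc4 (ENSRNOG00000008994) went the other way, with 265, 247 and 255 CPM in Rb2 replicates 1 to 3, against 336, 328 and 273 CPM in Ctrl replicates 1 to 3. All Rb2 samples lay below all Ctrl samples, but Ctrl replicate 3 was close to Rb2. The log2 fold change of -0.29 (SE 0.10) did not pass (edgeR adjusted p = 0.145), except without Ctrl replicate 3 (-0.36, edgeR adjusted p = 0.0412). Arpc2 and Arpc4 thus had fold changes of opposite sign in this fit; the difference between them was not tested.

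The remaining subunits had overlapping groups. Arpc1b (ENSRNOG00000000991), the WD-repeat subunit that contacts activators, was the most abundant member, with 929, 889 and 878 CPM in Rb2 and 771, 982 and 1023 CPM in Ctrl. Its log2 fold change was -0.04, with a 95% interval of -0.28 to 0.20 (edgeR adjusted p = 0.864). It was -0.14 without Ctrl replicate 1, and its sign turned with library size as the only scaling (0.07). Its paralogue Arpc1a (ENSRNOG00000000996) had 171, 156 and 150 CPM in Rb2 and 113, 163 and 158 CPM in Ctrl. Ctrl replicate 1 alone lay below the other 5 samples. The log2 fold change was 0.14, with an interval of -0.17 to 0.45 (edgeR adjusted p = 0.62), and 0.01 without Ctrl replicate 1 (edgeR adjusted p = 0.979). Arpc3 (ENSRNOG00000008673), which links to Actr3, had 327, 310 and 294 CPM in Rb2 and 314, 330 and 325 CPM in Ctrl. Its groups overlapped, with a log2 fold change of -0.06 and an interval of -0.24 to 0.13 (edgeR adjusted p = 0.746); with library size only the sign turned (0.05).

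Wasf2 (ENSRNOG00000009805) was the least abundant member, with 14.9, 17.0 and 16.9 CPM in Rb2 and 19.3, 10.7 and 13.6 CPM in Ctrl. Here Ctrl replicate 1 was the highest sample and not the lowest. The log2 fold change was 0.15, with an interval of -0.35 to 0.65 (edgeR adjusted p = 0.751). It was 0.44 without Ctrl replicate 1 (edgeR adjusted p = 0.154) and -0.02 without Ctrl replicate 2 (edgeR adjusted p = 0.977), on 59 to 159 counts per library.

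**Figure D2:**
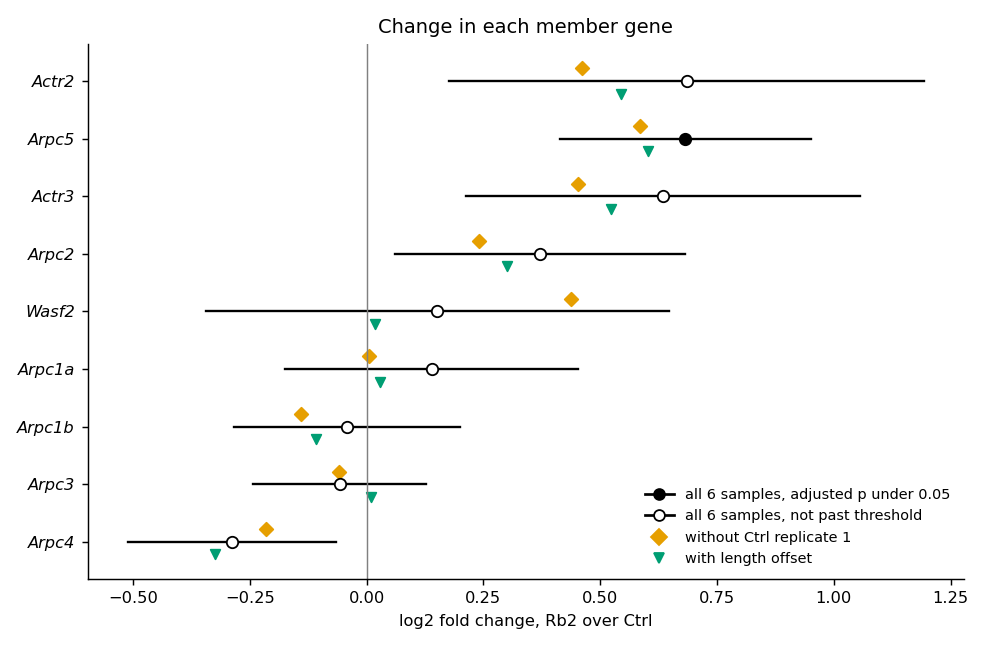
The horizontal axis is the log2 fold change of Rb2 over Ctrl and each row is 1 member; circles with lines are the fit to all 6 samples with 95% intervals, filled where the adjusted p is under 0.05, diamonds the fit without Ctrl replicate 1 and triangles the fit with a length offset. Arpc5 at 0.68 is the 1 filled circle, and Actr2, Actr3 and Arpc2 sit at 0.69, 0.63 and 0.37. These genes, Arpc5 included, have values nearer 0 in both other fits.

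Gene length moved with the fold changes. Among known genes tested, the median log2 fold change was -0.14 for the 433 genes under 1000 bases, 0.02 for the 1324 genes of 1500 to 2000 bases and 0.08 for the 1814 genes of at least 4000 bases. Actr2 and Actr3 have deposited lengths of 3463 and 2594 bases, Wasf2 2812, Arpc1a 2492, Arpc5 1926, Arpc2 1839, Arpc1b 1789, Arpc4 1435 and Arpc3 902 bases. When length was offset within each library, Arpc5 was called as well (log2 fold change 0.60, edgeR adjusted p = 0.0280), where 2.16% of all genes were. Actr2 and Actr3 were at 0.55 and 0.52 and not called (edgeR adjusted p = 0.242 and 0.111), Arpc4 was at -0.33 (edgeR adjusted p = 0.117), and Arpc3 turned to 0.01 (edgeR adjusted p = 0.968). Wasf2 and Arpc1a, at 0.15 and 0.14 before, were at 0.02 and 0.03 (edgeR adjusted p = 0.974 and 0.926). The offset used deposited lengths, which exceed those of the transcripts counted in some members. The mean transcript length behind the counts was 973 bases for Wasf2, 1675 for Actr2 and 1591 for Arpc1a, and 1874 for Arpc5. An offset on that length was not tested.

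The subunit genes differed in level per length. In CPM per kilobase of deposited gene length, averaged over the 6 samples, the order was Arpc1b (509.7), Arpc3 (351), Arpc4 (198), Arpc2 (92.9), Arpc5 (72.6), Actr2 (65.5), Arpc1a (61.0), Actr3 (49.9) and Wasf2 (5.48). From Arpc1b to Arpc2 each gene's lowest sample exceeded the highest of the next, and Wasf2 was likewise apart from Actr3. From Arpc2 to Actr3 the ranges of neighbours overlapped. The deposited gene length exceeds that of the transcripts that carry the counts in some members: for Actr2 the mean transcript length behind the counts was 1675 bases. Per kilobase of that length Actr2 came after Arpc4, at 135 CPM, before Arpc2 (120) and Arpc1a (95.5), while the top 3 and the last 3 places were Arpc1b, Arpc3, Arpc4 and Arpc5, Actr3, Wasf2.

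The summed level of the 8 subunit genes was 2483, 2400.2 and 2392 CPM in Rb2 and 1925, 2359 and 2427 CPM in Ctrl. The sums overlapped, with Ctrl replicate 1 lowest. Shares within this sum do not depend on scaling between libraries. In counts per deposited gene length, Arpc5 took 6.29% ± 0.355 in Rb2 and 4.04% ± 0.277 in Ctrl (SD, n = 3 each), Actr2 5.67% ± 0.0596 in Rb2 and 3.60% ± 0.887 in Ctrl, and Actr3 4.26% ± 0.327 in Rb2 and 2.81% ± 0.591 in Ctrl. Arpc2 took 7.36% ± 0.339 in Rb2 and 5.85% ± 0.708 in Ctrl. Arpc4 took 12.5% ± 0.249 in Rb2 and 16.0% ± 2.99 in Ctrl, with no overlap between groups in any of these genes. The shares per length of Arpc1a, Arpc1b and Arpc3 overlapped between groups. In counts alone Actr2 took 11.5% in Rb2 and 7.65% in Ctrl, and Arpc5 7.11% in Rb2 and 4.80% in Ctrl. The order of these 2 genes thus depends on the length used. Arpc1b took 37.0% of counts in Rb2 and 41.3% in Ctrl, and Arpc3 12.8% in Rb2 and 14.6% in Ctrl, both without overlap. Shares of 1 sum cannot all move the same way. These shares repeat the same counts and were not tested.

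Paralogue use was compared within each library, with deposited gene lengths for counts per length. Arpc5 took 61.9%, 62.7% and 63.7% of the counts per length of Arpc5 and Arpc5l in Rb2 replicates 1 to 3, against 46.7%, 52.7% and 56.0% in Ctrl replicates 1 to 3. Every Rb2 share exceeded every Ctrl share, by 10.9 percentage points on average (exact two-sided permutation p = 0.1, the smallest that 3 against 3 samples allow). In counts alone Arpc5 took 53.7%, 54.5% and 55.6% in Rb2 replicates 1 to 3, against 38.5%, 44.3% and 47.6% in Ctrl replicates 1 to 3. The deposited length of Arpc5l is 2698 bases, but the mean transcript length behind its counts was 1260 bases (Arpc5: 1926 and 1874 bases). Which of the pair is the larger form thus depends on the length used. Arpc5l itself had 144, 144 and 142 CPM in Rb2 and 144, 139 and 134 CPM in Ctrl. Its log2 fold change was 0.04 (edgeR adjusted p = 0.828). RefSeq lists 4 Arpc5l pseudogenes and a gene, Golga1, that overlaps Arpc5l, so its counts are less certain.

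Arpc1b took 88.3%, 88.8% and 89.1% of the counts per length of Arpc1a and Arpc1b in Rb2 replicates 1 to 3, against 90.5%, 89.4% and 90.0% in Ctrl replicates 1 to 3. All Rb2 shares lay below all Ctrl shares, by 1.21 percentage points on average (exact two-sided permutation p = 0.1). Arpc1b was thus the main form in every sample. The 2 genes are neighbours in RefSeq, which also lists 1 pseudogene of Arpc1a and 2 of Arpc1b. The Actr3 share of Actr3 and Actr3b was 99.5% to 100% in Rb2 and 99.6% to 100% in Ctrl (exact two-sided permutation p = 1).

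**Figure D3:**
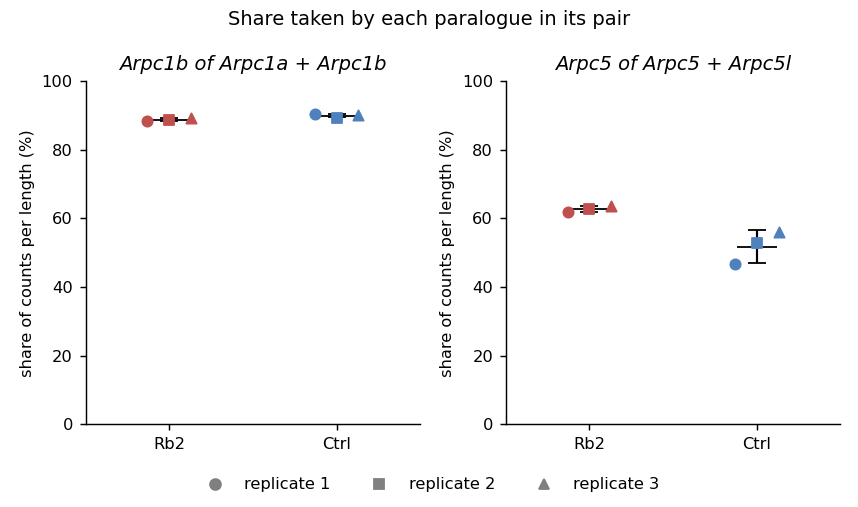
Each panel plots the share in percent of counts per deposited gene length that 1 paralogue takes in its pair, with Rb2 left of Ctrl, symbols for replicates 1 to 3 and a bar for the mean with its SD (n = 3). Arpc5 takes 61.9% to 63.7% in Rb2 and 46.7% to 56.0% in Ctrl, while Arpc1b takes 88.3% to 90.5% in all samples.

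At the transcript level no row was called with edgeR among 16679 tested (0% called), and 2304 of them (13.8%) had an unadjusted p under 0.05. Of the 18 member transcripts tested, 5 had an unadjusted p under 0.05 and none was called. DESeq2 called 1 of the members' transcripts, the new model ONT.5531.2 of Arpc5 (log2 fold change 0.73, DESeq2 adjusted p = 0.000829), where it called 4.21% of 8257 transcripts. ONT.5531.2 had 137, 173 and 169 CPM in Rb2 replicates 1 to 3, against 91.9, 111 and 86.2 CPM in Ctrl replicates 1 to 3. These groups did not overlap, and the edgeR log2 fold change was 0.73 (SE 0.14, adjusted p = 0.149). It carried 82.1% to 100% of the Arpc5 counts in Rb2 and 70.4% to 100% in Ctrl. A second new model, ONT.5531.1, had 168, 0 and 54 counts in Rb2 and 0, 0 and 192 counts in Ctrl, and the annotated Arpc5-201 had 15 counts in Ctrl replicate 3 and none elsewhere. A switch between whole blocks of counts and 0 in replicates of 1 group was also seen in ONT.5733.3 of Actr3, with 44, 0 and 113 counts in Rb2 and 56, 0 and 58 counts in Ctrl.

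For Actr2 the annotated Actr2-201 held 96.4% to 96.7% of the counts in Rb2, against 88.5%, 96.6% and 96.9% in Ctrl replicates 1 to 3. The remainder was the new model ONT.6539.1, at 11.5% in Ctrl replicate 1 and 3.11% to 3.56% in the other 5 samples. Arpc4 showed the same library apart: its new model ONT.12699.1 had 9, 27 and 15 counts in Rb2 and 410, 10 and 16 counts in Ctrl replicates 1 to 3. That model made up 14.8% of Arpc4 in Ctrl replicate 1 and 0.552% to 1.89% in the others. The annotated Arpc4-201 alone had 263, 243 and 254 CPM in Rb2 replicates 1 to 3, against 291, 327 and 271 CPM in Ctrl replicates 1 to 3. These values do not overlap, as for the whole gene, with a log2 fold change of -0.23 (SE 0.09, edgeR adjusted p = 0.357).

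Wasf2 counts sat mainly in short new models. ONT.13816.2, of 818 bases where the deposited gene length is 2812 bases, held 50%, 89.8% and 55.4% of the counts in Rb2, against 69.8%, 69.5% and 84.6% in Ctrl. The shares overlapped and varied within both groups. Arpc1b-201 held at least 99.9% of Arpc1b in every sample, and Arpc3 has the single transcript row Arpc3-201.

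**Figure D4:**
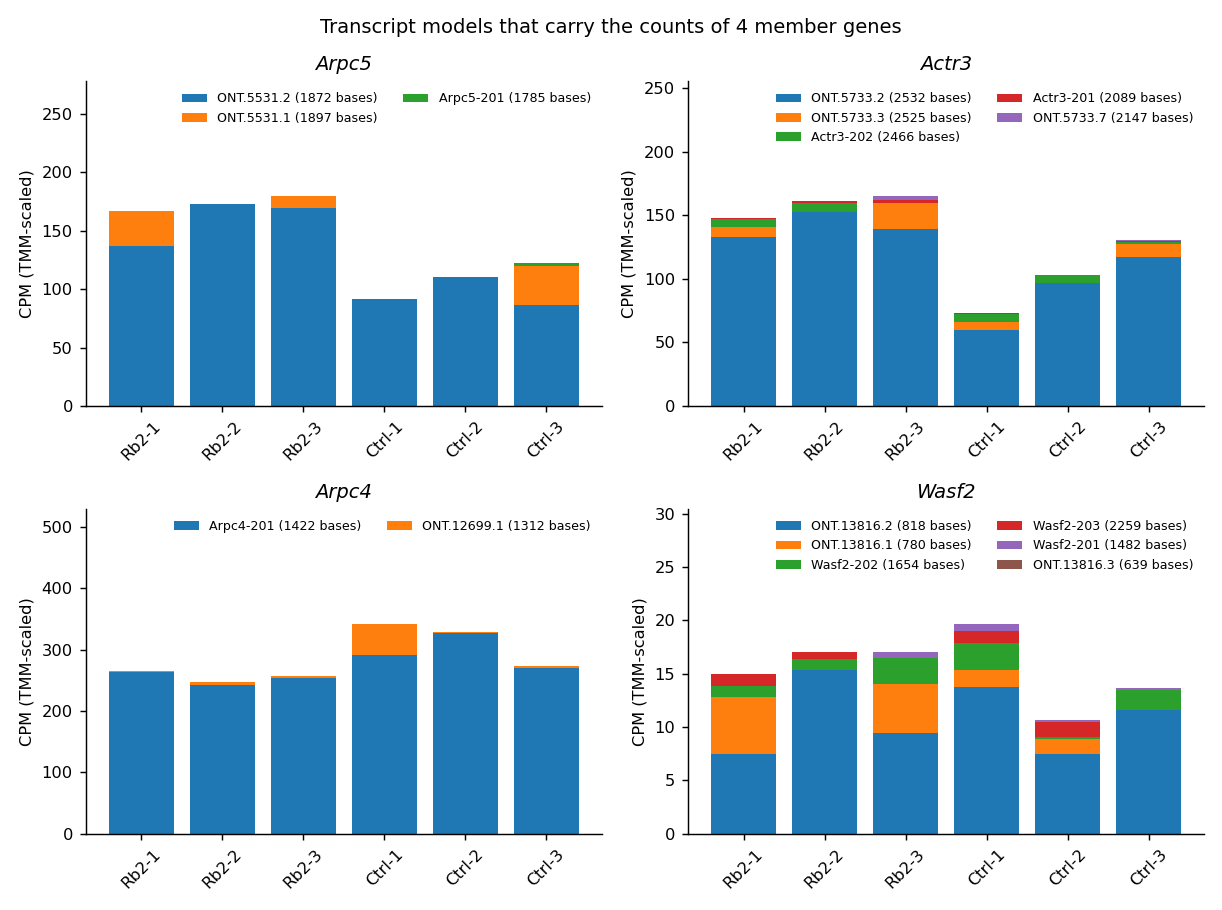
Stacked bars give TMM-scaled CPM of each transcript row of Arpc5, Actr3, Arpc4 and Wasf2 in Rb2 replicates 1 to 3 and then Ctrl replicates 1 to 3, with colours for rows and their length in the legend. The new Arpc4 model ONT.12699.1 is at 50.7 CPM in Ctrl replicate 1 and at 1.60 to 4.70 CPM in the other 5 samples.

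How counts divide among the transcripts of a gene was tested in 3361 genes with diffSpliceDGE of edgeR, and of these 0.357% were called and 2.08% had an unadjusted p under 0.05. Of the 7 members with at least 2 tested transcripts (all but Arpc1b and Arpc3) none was called, and the smallest unadjusted p was that of Arpc4 (0.103; diffSpliceDGE adjusted p = 1).

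The genes around the complex were read from 9 lists of 87 genes, of which 81 matched a row and 57 were tested. Among these 57, 1 was higher, 1 was lower and 55 did not pass, that is 3.51% called, near the 2.7% of all genes. Their median log2 fold change was 0.06. Rb2 lay above Ctrl without overlap in 15 of the 57, a larger share than the 15% over all genes tested. It lay below in 5 of the 57, a smaller share than the 12.2% over all genes tested.

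Of the WAVE regulatory complex, the set of proteins that holds Wasf2 and its relatives inactive, 5 genes were tested. Of these, 4 were above and 1 below 0, and none passed (median 0.26). Its most abundant gene, Brk1, a small subunit, had 201 ± 7.67 CPM in Rb2 and 210.4 ± 4.41 CPM in Ctrl (SD, n = 3 each; log2 fold change -0.06). Of the N-WASP and cortactin group 3 were tested, 1 above and 2 below 0, and none passed (median -0.66). Wasl, which encodes N-WASP, had 21.2 ± 1.99 CPM in Rb2 and 14.0 ± 2.76 CPM in Ctrl (log2 fold change 0.59, edgeR adjusted p = 0.117). None of the 5 WASH complex genes, which direct Arp2/3 to endosomes, passed (median 0.30; Washc3 at 0.18).

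The proteins that restrain Arp2/3 or take branches apart had 8 genes tested, 1 above and 7 below 0, and none passed (median -0.13). Coro1b, a coronin that removes branches, had 258 ± 5.54 CPM in Rb2 and 299 ± 19.7 CPM in Ctrl (SD, n = 3 each), a log2 fold change of -0.21 (edgeR adjusted p = 0.204). Of the Rac and Cdc42 group 8 were tested and none passed (median 0.05; Arf1, a small GTPase, at 0.04).

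Among 12 capping, cofilin and monomer-binding genes, Twf1 rose and the other 11 did not pass (median 0.12). Twf1 encodes twinfilin, which binds actin monomers and filament ends. It had 47.9, 45.2 and 46.0 CPM in Rb2 replicates 1 to 3, against 25.8, 29.5 and 29.4 CPM in Ctrl replicates 1 to 3, without overlap (log2 fold change 0.72, SE 0.12, edgeR adjusted p = 0.0302). Among 9 formins and other nucleators of unbranched filaments, Lmod1 fell and 8 did not pass (median -0.17). Lmod1, leiomodin of smooth muscle, had 104, 113 and 110 CPM in Rb2 replicates 1 to 3, against 199, 176 and 167 CPM in Ctrl replicates 1 to 3 (log2 fold change -0.73, edgeR adjusted p = 0.0149). None of 6 actin-related proteins of other complexes passed (median 0.12), among them Actr1a of dynactin at 233 ± 12.4 CPM in Rb2 and 223 ± 57.0 CPM in Ctrl (SD, n = 3 each; log2 fold change 0.06).

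**Figure D5:**
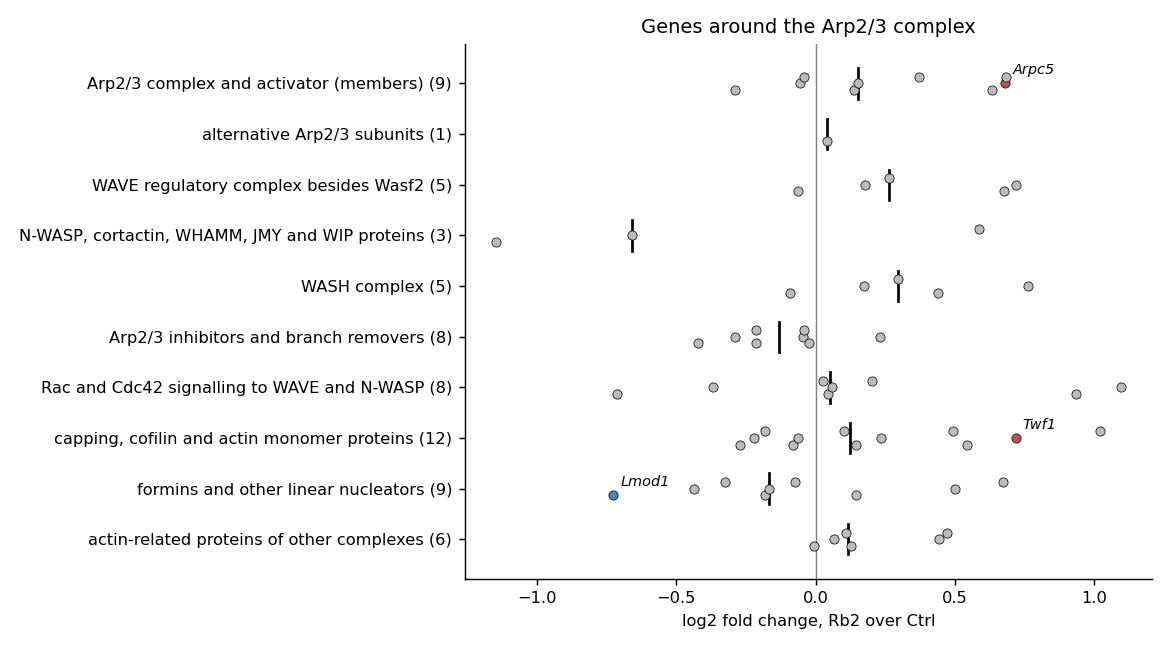
The horizontal axis is the log2 fold change of Rb2 over Ctrl and each row is 1 gene list with the number tested in brackets; dots are genes, red for higher and blue for lower at adjusted p under 0.05, and the short vertical line is the median. The 3 coloured dots are Arpc5 (0.68), Twf1 (0.72) and Lmod1 (-0.73).

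Over the 6 samples, the genes whose log2 CPM was most like that of Arpc5, among 6598 named genes averaging 5 CPM or more, were Srsf10, Dnajc3 and Uba3 (Pearson r = 0.997, 0.996 and 0.996). Most like Arpc1b were Eif4b, Rtcb and Eno1 (0.997, 0.996 and 0.996). These values describe 6 libraries that share a group split and the outlying Ctrl replicate 1.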

How the data were processed

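The authors deposited whole-number counts for genes and transcripts, with lengths, and CPM, which equals the deposited count scaled by the column total (largest difference 4.9e-11). The submitters' processing notes name HISAT2, DESeq2 and mm10, a mouse build, without roles. Identifiers are rat, so the build used is unsettled. Not given in the sources used here are the counter, its strand setting, the annotation, and how reads of near-identical copies were assigned (RefSeq lists pseudogenes of Actr2, Actr3, Arpc1a, Arpc1b and Arpc5l). Identifiers of new models begin with ONT, but the library kit in the labels is a short-read one, so the read type is unsettled. A further 18 per-sample columns in each file, matching none of these samples, were left aside.

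The test was edgeR's robust quasi-likelihood fit (version 4.0.16, R 4.3.3) on TMM-scaled libraries after filterByExpr, with group as the only term, with adjustment over all genes or transcripts. Each standard error was derived from the F statistic. Usage was tested with diffSpliceDGE (Simes p). Alternatives were other scalings and filters, DESeq2 1.42.0, limma 3.58.1 on voom values and on log2(CPM + 1) or log2(CPM + 0.1) from the deposited CPM, a 0.01 threshold, the replicate number as a block, a loess length offset per library (span 0.5), known genes only and each sample left out. The fits were tested on simulated counts. Members and lists were chosen with earlier results of these data known. Named pathway genes are up to 4 called per list, or else the one with the highest CPM. Likeness uses log2 CPM with a prior count of 2.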

Additional observations from a re-analysis of the deposited data

How the results depend on the processing

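The number of members called was 1 (Arpc5). It was 3 with DESeq2, 0 at a threshold of 0.01, and 0 to 4 when 1 sample was left out: 0 without Ctrl replicate 2 or any 1 Rb2 replicate, 3 without Ctrl replicate 1 (7.53% of all genes called) and 4 without Ctrl replicate 3 (5.36% called). With the replicate number as a block no member was called (Arpc5 edgeR adjusted p = 0.0551) and 33 genes were. Same-numbered samples did not deviate together (correlations -0.067, -0.061 and -0.0067). Pairing by number is thus not established, but 3 samples per group cannot exclude it. The 312 genes called became 543 with library size only, 536 without the filter, 177 with limma-voom, 601 and 559 on the deposited CPM with pseudocounts of 1 and 0.1, 17 at 0.01, 113 among known genes only, and 3 to 896 with 1 sample left out. The higher share of calls was 70.2%, against 59.5% with upper-quartile factors, 85.3% with library size only, 85.5% and 85.9% on the deposited CPM, 54.2% with the length offset, 36.4% with the block, 23.5% at 0.01, and 0%, 9.09% and 13.3% without Rb2 replicate 2, Rb2 replicate 3 or Ctrl replicate 2. With library size the all-gene median was 0.10, against -0.02. Directions turned in members that were not called: Arpc1b (0.0676 with library size, 0.0813 and 0.0814 on the deposited CPM, -0.141 to 0.0513 with 1 sample out), Arpc3 (0.0547 with library size, 0.0545 and 0.0547 on the deposited CPM, 0.00867 with the length offset) and Wasf2 (-0.0174 to 0.438 with 1 sample out). DESeq2 called 348 transcripts, 1 of them of a member, and edgeR 0 to 41 with 1 sample left out. Usage was called in 12 genes, in 0 with limma, 3 with the block and 17 to 30 with 1 sample left out, never in a member. The Actr3 share differed by -0.04 percentage points, and by -0.165 to 0.129 with 1 sample left out. The Arpc1b and Arpc5 shares kept their direction on raw counts, per transcript length (chosen after seeing the data) and with any 1 sample left out; annotated transcripts only gave no value for them, since Arpc1a and Arpc5l have none, and -1.51 for the Actr3 share.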
